A study of Mus musculus with 4 samples.

Results

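The genes described here carry the names of immune molecules: the leukocyte surface antigens named Cd, the C-type lectins named Clec, the interleukins with their receptors named Il, the chemokines named Ccl and Cxcl, and the chemokine receptors named Ccr and Cxcr. They were chosen by the spelling of the symbol alone and numbered 234 of the 29653 genes that any deposited list held. Of these, 90 were Cd antigens, 30 were C-type lectins, 70 belonged to the interleukin system, 29 were chemokines and 15 were chemokine receptors. The spelling also takes in genes that are no immune signal or antigen themselves, among them Cd3eap, Il4i1 and Il1bos. Cd3eap encodes a subunit of RNA polymerase I, Il4i1 an enzyme that oxidises amino acids, and Il1bos is a transcript on the strand opposite Il1b. The symbols Cd2ap, Cd2bp2, Cd81, Il1rapl1 and Il1rapl2 were left out.

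Single-cell RNA-seq libraries were made from the fetal pancreas of C57BL/6 mice, with cells labelled for the epithelial protein EpCAM and collected by flow cytometry. There was 1 library in each of 4 groups, and all embryos carried floxed Setd2 alleles (Setd2 f/f). The WT libraries, at E13.5 and E15.5, had these alleles alone, and the KO libraries, at the same ages, also carried Pdxcre, a recombinase under a promoter of the pancreatic epithelium. Setd2 encodes a methyltransferase for lysine 36 of histone H3. The files used here give a list of genes for each library and no level, so each gene is described as listed or not listed. The lists of 3 libraries were complete: 25463 genes for WT at E13.5, 26341 for KO at E13.5 and 25474 for KO at E15.5. That of E15.5 WT stopped after 167 genes and is used only up to that identifier. With 1 library per group there is no replicate check and no p-value, and the depth of each library is unknown. A listing does not tell the number of cells of a type from the RNA per cell, and a gene that is not listed may have been missed.

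Leukocytes are told apart by their surface molecules. T cells carry the CD3 chains that signal for the antigen receptor, B cells carry the CD79 chains, and macrophages carry scavenger and pattern receptors, many of them C-type lectins. Chemokines are small secreted proteins that guide leukocytes through G protein-coupled receptors, and interleukins are secreted signals read by paired receptor chains. In the fetal pancreas the resident leukocytes are mainly macrophages. Leukocytes do not usually carry EpCAM, and the labels do not say which fraction of the sort was sequenced.

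Most of the immune-named genes were listed in every complete list. Of the 234 genes, 180 (76.9%) were in all 3 complete lists, and 54 (23.1%) were missing from at least 1. Over all genes 25.1% were not in all 3, and over protein-coding genes 10.6%, the closer background because 230 of the 234 are protein-coding. At E13.5, 217 of the genes (92.7%) were listed in WT and 213 (91.0%) in KO, and at E15.5, 192 (82.1%) were listed in KO. The E15.5 KO list was thus the shortest for these genes, and it was also the shortest for all protein-coding genes, with 16717 against 17108 in WT and 17154 in KO at E13.5.

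The genes shared by all 3 complete lists included genes assigned to each leukocyte lineage, which does not show that cells of that lineage were present. Lineages were assigned by hand from the cell that a gene is best known for. This is coarse for secreted factors and for surface proteins of many cell types, such as Cd9, Cd44 and Cd63. By this assignment 151 genes had a leukocyte lineage, 68 had another or none in particular, and 15 were not assigned. All 10 genes of leukocytes in general were in the 3 lists, among them Cd44, an adhesion receptor for hyaluronan, Cd53, a tetraspanin of blood cells, Il7r, the interleukin-7 receptor of lymphocytes, and Cxcr4, the receptor of Cxcl12. So were 41 of 51 macrophage or monocyte genes, such as Cd68 of lysosomes, Cd14, the co-receptor for lipopolysaccharide, the haemoglobin scavenger receptor Cd163, Clec7a, which binds beta-glucans of fungi, and the monocyte receptor Ccr2. The B cell group had 12 of 14 in all 3 lists, with Cd79a and Cd79b, the signalling chains of the B cell receptor, Cd22 and Cxcr5. The granulocyte or mast cell group had 12 of 13, including Il1rl1, the receptor for interleukin-33, Ccr3 of eosinophils and Cxcr2 of neutrophils. The T cell group had 19 of 29, with Cd3e, Cd3g, Cd4 and Cd28, and the NK or cytotoxic group 6 of 12, with Il2rb and Cd244. The NK or cytotoxic group also takes in Clec2d, Clec2e, Clec2f, Clec2g, Clec2h and Clec2i. These encode ligands of receptors on NK cells, so the group is not a set of NK cell markers. The dendritic cell group had 9 of 20, with Cd74, the invariant chain of antigen presentation, and Clec10a. Genes with no lineage in particular were in all 3 lists in 26 of 27 cases, Il13ra2 being the exception. Both genes assigned to platelets, Cd9 and Clec1b, were in all 3 lists.

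**Figure D1:**
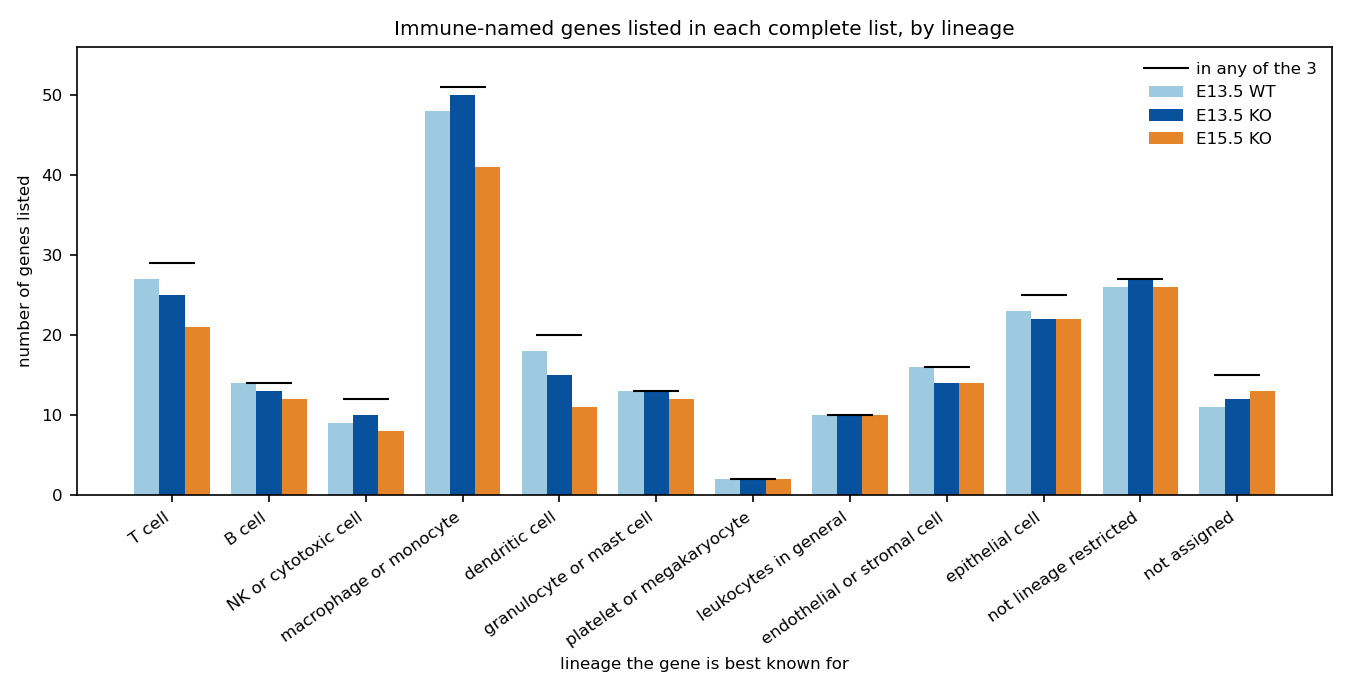
Number of immune-named genes listed (vertical axis) by the lineage the gene is best known for (horizontal axis), with bars for the 3 complete lists (WT and KO at E13.5, KO at E15.5) and a black line for the number in any of the 3. The E15.5 KO bar is the lowest in the T cell, B cell, NK or cytotoxic, macrophage or monocyte, dendritic cell, and granulocyte or mast cell groups, and stands at 41 against 48 and 50 in the macrophage or monocyte group.

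The comparison of the KO libraries asks how the sorted pancreas differed between E13.5 and E15.5. Of 224 immune-named genes in either KO list, 181 (80.8%) were in both, 32 (14.3%) were in E13.5 KO only and 11 (4.91%) in E15.5 KO only. Among all protein-coding genes 5.03% were in E13.5 KO only and 2.55% in E15.5 KO only, and among all genes 10.4% and 7.37%. The share at E13.5 only therefore lay above both backgrounds, and the share at E15.5 only lay above the protein-coding and below the all-gene background. Genes with a leukocyte lineage made up most of the 32: they contributed 26 of 143 (18.2%), and the other genes 6 of 81 (7.41%). The E13.5 WT list gave the same numbers beside E15.5 KO, with 32 of 224 genes (14.3%) in E13.5 WT only, where 5.11% of protein-coding genes and 9.27% of all genes were in E13.5 WT only. There 7 (3.12%) were in E15.5 KO only, against 2.89% and 9.31%. Both comparisons use the single E15.5 KO list, and the latter joins age with genotype.

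**Figure D2:**
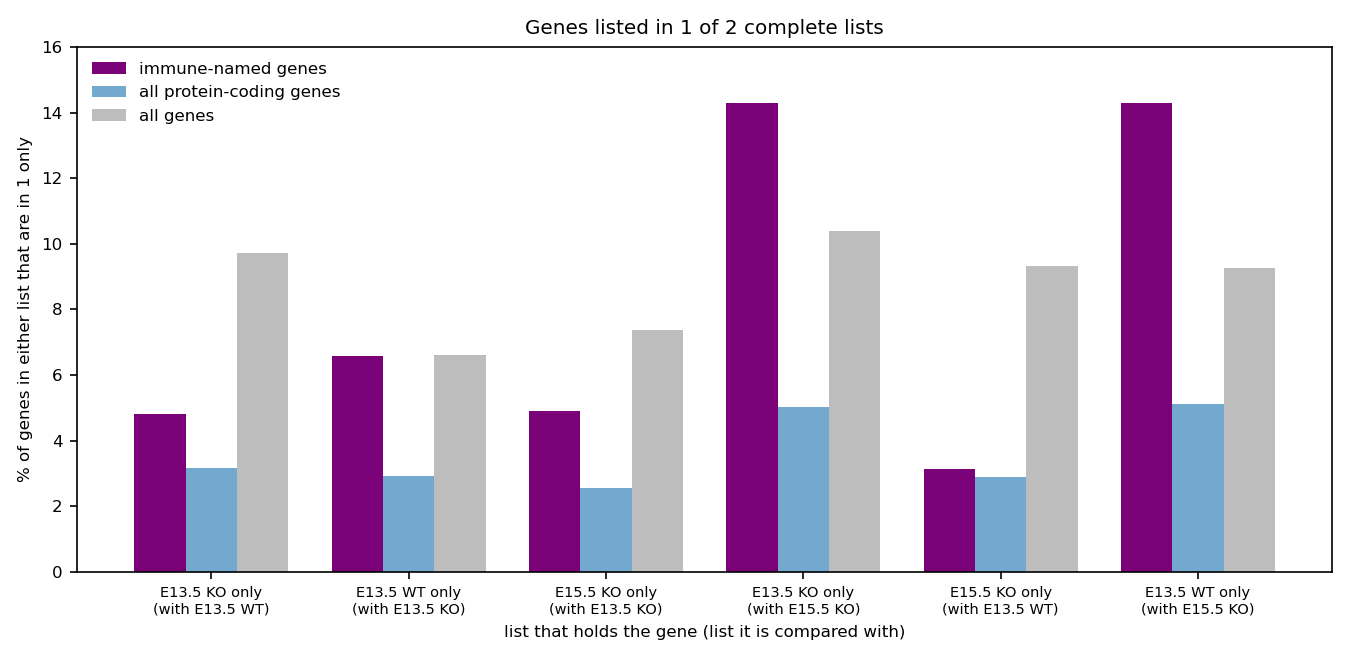
Percentage of the genes in either of 2 complete lists that were in 1 list only (vertical axis), for immune-named genes, all protein-coding genes and all genes, with the list that holds the gene and its partner named on the horizontal axis. The immune-named genes reach 14.3% in E13.5 KO only and in E13.5 WT only when E15.5 KO is the partner, against 5.03% and 5.11% of protein-coding genes.

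Both E13.5 lists held 22 immune-named genes that the E15.5 KO list did not, 9.4% of the 234, against 3.09% of protein-coding genes and 4.69% of all genes. The Cd genes were known to differ when these families were chosen, so the set is given as a description. All but Clec4g, a lectin of liver sinusoidal endothelium, belonged to a leukocyte lineage by the assignment. It included 12 Cd antigens, 3 C-type lectins, 3 genes of the interleukin system and 4 chemokine receptors, and no chemokine.

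Among the T cell genes of this set was Cd3d (chromosome 9, 44981786 to 44987339, mm10/GRCm38), which encodes the delta chain of the CD3 complex. Cd3d was listed in E13.5 WT and E13.5 KO and not listed in E15.5 KO. Its neighbours Cd3g and Cd3e, for the gamma and epsilon chains, were listed in all 3, and so was Cd247 for the zeta chain. These chains assemble with the antigen receptor of T cells, and mouse gamma-delta T cells can display theirs without the delta chain. Cd3g and Cd3d lie head to head, with 1355 bases between their starts. The annotated spans of Cd3e and Cd247 overlap other genes on both strands, and those of Cd3d and Cd3g overlap none. Reads of the overlapping genes could count for Cd3e and Cd247. The 150 bases before the start of each CD3 gene are shown because the listing split this neighbourhood. They are from RefSeq on GRCm38.p6, written 5' to 3' on the strand of the gene, with matches of 3 motifs on either strand in capitals. The motifs were GAGGAA for the PU.1 type of ETS factors. For RUNX factors TGTGGT was searched, and for the core promoter box bound by TBP the letters TATAAA.
Cd3d (chr9:44981636-44981785, plus strand): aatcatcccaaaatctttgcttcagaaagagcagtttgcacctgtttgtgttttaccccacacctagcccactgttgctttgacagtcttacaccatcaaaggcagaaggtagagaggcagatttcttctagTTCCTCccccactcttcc
Cd3g (chr9:44980432-44980581, minus strand): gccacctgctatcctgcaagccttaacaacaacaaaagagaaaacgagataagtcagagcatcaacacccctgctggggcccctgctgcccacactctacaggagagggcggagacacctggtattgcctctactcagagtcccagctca
Cd3e (chr9:45009612-45009761, minus strand): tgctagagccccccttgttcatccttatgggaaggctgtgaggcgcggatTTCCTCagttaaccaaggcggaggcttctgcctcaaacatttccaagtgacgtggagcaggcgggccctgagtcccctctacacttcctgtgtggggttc
The Cd3d and Cd3e stretches each hold 1 match of the ETS motif, read from the opposite strand, and the Cd3g stretch holds none of the 3 motifs. The gene that was not listed and a gene that was listed thus share that motif in these windows.

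The other T cell genes of the set were all chemokine receptors. Ccr4, a receptor of helper and skin-homing T cells, Ccr8 of regulatory and helper subsets, Ccr9 of thymocytes and gut-homing T cells, and Cxcr6 of resident T and NKT cells were each listed in both E13.5 libraries and not in E15.5 KO. Cd79a, Cd79b, Cd22 and Cd72 of the B cell lineage were listed in all 3. Cd160, a receptor of NK and cytotoxic T cells, and Il18rap, the second chain of the interleukin-18 receptor, were the NK or cytotoxic genes. The partner chain Il18r1, next to Il18rap on chromosome 1, was listed in all 3.

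The macrophage or monocyte genes of the set were Cd5l, Il1a and 4 genes of the Cd300 family. Cd5l (chromosome 3, 87357881 to 87371073) encodes a secreted scavenger protein made by tissue macrophages, and Il1a the cytokine interleukin-1 alpha. Cd300c, Cd300ld, Cd300ld3 and Cd300ld4 encode lipid-binding receptors of myeloid cells. The family was split: Cd300a, Cd300c2, Cd300e, Cd300lb and Cd300lf were listed in all 3. The dendritic cell genes were Cd101, the DC-SIGN relatives Cd209a, Cd209b and Cd209f, and the lectins Clec4a4 and Clec4b1. The granulocyte gene was Il5ra (chromosome 6, 106710357 to 106749037), the interleukin-5 receptor chain of eosinophils.

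The 10 other genes in E13.5 KO and not in E15.5 KO were not in E13.5 WT either, so that among the complete lists they rest on 1 library. They were Cd163l1, Cd300ld5, Clec2g, Cxcl9, Il12b, Il13ra2, Il1f10, Il1f9, Il31 and Il5. Cxcl9 is a chemokine induced by interferon, Il12b a shared subunit of interleukins 12 and 23, Il13ra2 a decoy receptor for interleukin-13, and Il5 the growth factor of eosinophils.

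The E15.5 KO list held 11 immune-named genes that E13.5 KO did not, and 6 of them were in neither E13.5 list. These 6 were Il2ra, Clec9a, Cd209c, Clec2e, Il17c and Il22ra2. Il2ra (chromosome 2, 11642807 to 11693193) is the alpha chain of the interleukin-2 receptor, found on activated and regulatory T cells and innate lymphoid cells. Clec9a is a lectin of the dendritic cells that take up dead cells, and its annotated span overlaps that of Clec1b on the same strand. Il2ra overlaps Gm37881 and Il17c overlaps Gm20388, also on the same strand, and of the 50-base words in the transcripts of Cd209c, 11.6% occur in those of other genes. The listings of these 4 genes are uncertain. Clec2e and Il22ra2 had no such overlap and shared no words. Il17c is an epithelial cytokine, and Il22ra2 a soluble binding protein that blocks interleukin-22. The remaining 5, Ccl11, Cxcl17, Il22, Il25 and Il7, were in E13.5 WT as well. Among the complete lists they were missing from E13.5 KO alone.

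**Figure D3:**
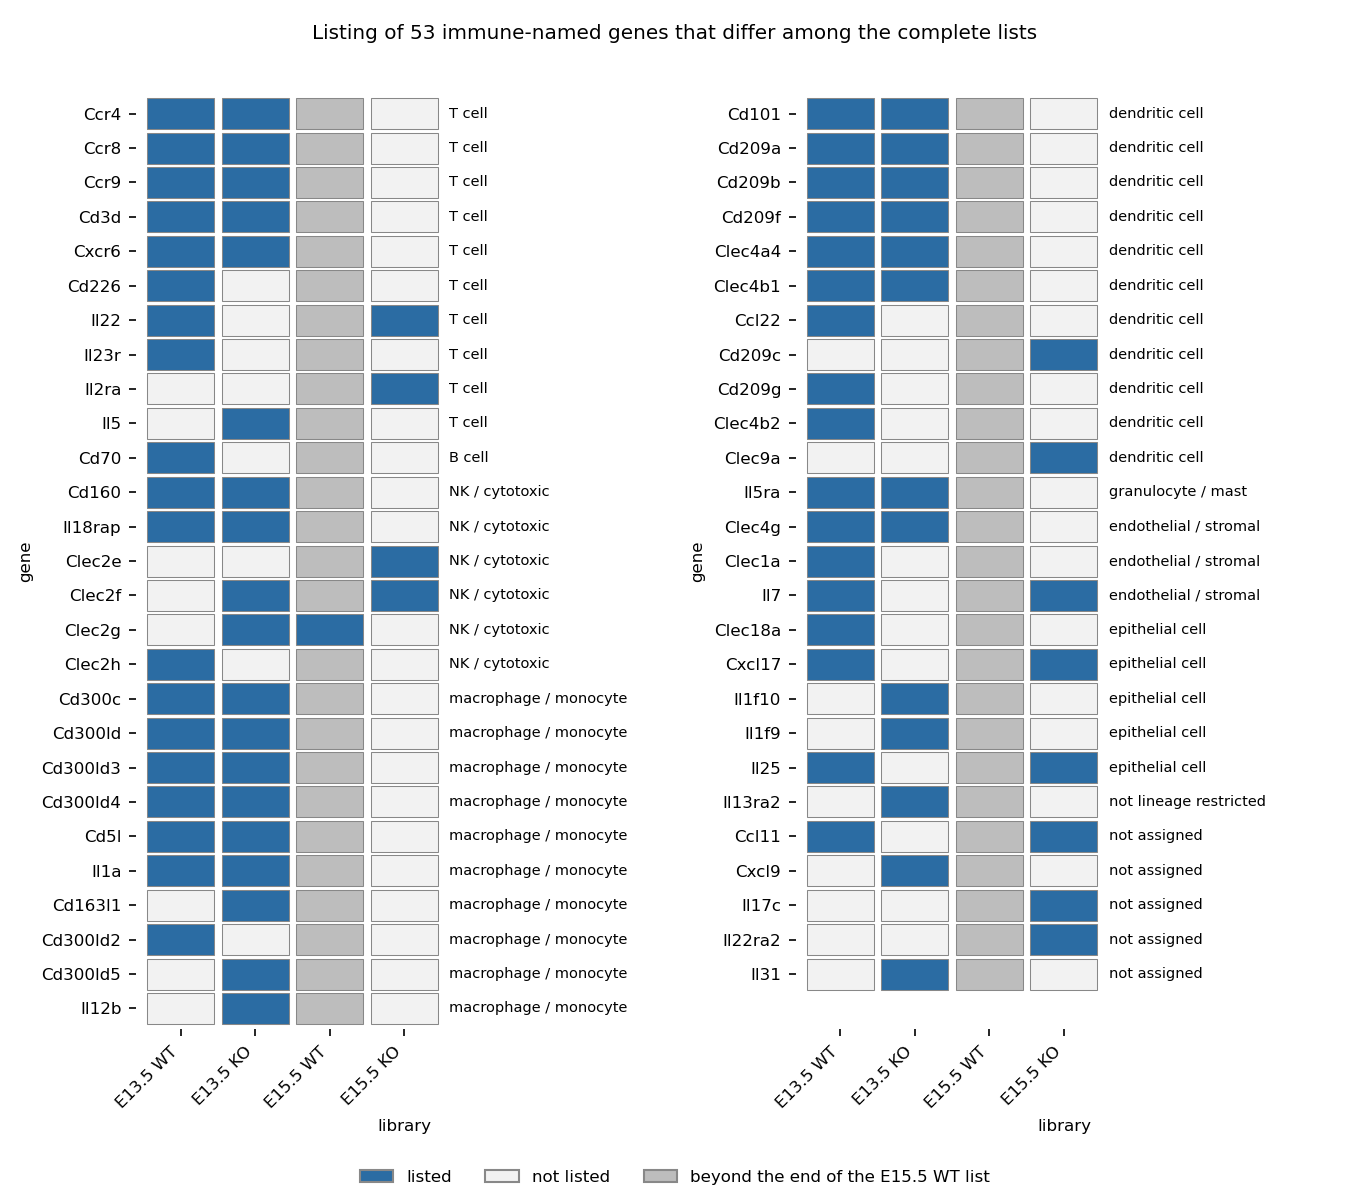
Listing of 53 of the 54 immune-named genes that were not in all 3 complete lists (rows, with the lineage beside each) in the 4 libraries (columns): filled tiles are listed, pale tiles not listed, and grey tiles mark identifiers past the last E15.5 WT entry. The genes filled in both E13.5 columns and pale in E15.5 KO are mostly T cell, macrophage or monocyte, and dendritic cell genes.

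Fewer leukocyte markers outside the named families were listed in E15.5 KO than in either E13.5 list. These markers were chosen with earlier results of these data known, so their counts are a description and no independent support. Of 87 marker genes of leukocytes, 79 were listed for WT and 81 for KO at E13.5, and 63 for KO at E15.5. Over all protein-coding genes the lists held 17108, 17154 and 16717. Of those in either list 5.11% were in E13.5 WT and not in E15.5 KO, and 5.03% in E13.5 KO and not in E15.5 KO. No such share was computed for the markers. The 8 markers of leukocytes in general, such as Ptprc (CD45) and Spi1 (PU.1), were in all 3. The granulocyte or mast cell markers went from 18 and 17 at E13.5 to 11 of 18. Elane, Camp and Ngp of neutrophil granules, Prg2 and Epx of eosinophil granules and Tpsb2 of mast cells were listed in both E13.5 libraries and not in E15.5 KO. S100a8, S100a9, Mpo, Prtn3, Csf3r, Ltf, Ly6g, Kit, Cpa3, Fcer1a and Ms4a2 of the same group were in all 3. The T cell markers went from 10 and 11 to 8 of 12, with Trac and Thy1 among those not listed in E15.5 KO. Lck, Zap70, Trbc1, Trbc2, Rag2, Ptcra and Lat were in all 3. The macrophage or monocyte markers stood at 15, 16 and 14 of 16, with Csf1r, Adgre1 and C1qa in all 3. The B cell markers stood at 7, 9 and 7 of 9, the dendritic cell markers at 7, 7 and 5 of 7, and the platelet or megakaryocyte markers at 8, 7 and 6 of 8. Of 9 NK or cytotoxic markers 6, 6 and 4 were listed, and Ncr1 and Gzma were in no complete list. All 21 genes of cytokine signalling, the JAK and STAT genes among them, were in the 3 lists. Of 7 other genes of the chemokine system Xcl1, a lymphocyte chemokine, was the 1 not listed in E15.5 KO. The endothelial or stromal markers stood at 10, 10 and 8 of 10, and the 9 markers of pancreatic epithelium, with Epcam, Cdh1 and Pdx1, were in all 3. The part of the shorter protein-coding list and of these cell type markers in the differences among the immune-named genes was not tested.

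The comparison of the E13.5 libraries asks which immune-named genes were listed in embryos with and without Pdxcre. Its promoter is one of the pancreatic epithelium, and the lists do not show which cells lost Setd2. Of 228 genes in either list, 202 (88.6%) were in both, 11 (4.82%) in E13.5 KO only and 15 (6.58%) in E13.5 WT only. The protein-coding background was 3.17% in KO only and 2.91% in WT only, and the all-gene background 9.72% and 6.61%. Neither share lay above the all-gene background, and both lay above the protein-coding one.

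The 15 genes in E13.5 WT only were spread over lineages. The T cell genes were Cd226, an activating receptor, Il22, a cytokine that acts on epithelia, and Il23r, the receptor of interleukin-23. The dendritic cell genes were Ccl22, a ligand of Ccr4, Cd209g and Clec4b2. The others were Cd70, the ligand of Cd27, Clec2h, Cd300ld2, the endothelial lectin Clec1a, Il7, the survival factor of lymphocytes, the epithelial genes Clec18a, Cxcl17 and Il25, and Ccl11, the eosinophil chemokine. Of these, Il22, Il25, Il7, Ccl11 and Cxcl17 were also in E15.5 KO, so for them the E13.5 KO list stood alone among the complete lists.

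The 11 genes in E13.5 KO only were the 10 named above as listed there alone among the complete lists, and Clec2f. Clec2f, which the annotation gives as a transcribed pseudogene, was the 1 immune-named gene present in both KO lists and absent from E13.5 WT. That is 0.427% of the 234 genes, where 1.28% of protein-coding genes and 3.94% of all genes had this pattern. Il1f9 and Il1f10, 2 of the 11, are epidermal relatives of interleukin-1 and lie in the same group of genes on chromosome 2.

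Among the chemokines, 25 of 29 were in all 3 complete lists, and the 4 others were Ccl11, Ccl22, Cxcl9 and Cxcl17. Among the chemokine receptors, 15 of 15 were in both E13.5 lists and 11 in E15.5 KO. Of 30 ligand and receptor pairs taken from textbook knowledge, both partners were listed in 25 for WT and in 24 for KO at E13.5, and in 20 for KO at E15.5. In E15.5 KO 4 pairs had the ligand alone: Ccl17 without Ccr4, Ccl8 without Ccr8, Ccl25 without Ccr9 and Cxcl16 without Cxcr6. These ligands are made by dendritic cells and macrophages or, for Ccl25, by thymic and gut epithelium. In the E13.5 lists no chemokine pair could have its ligand alone, because the receptors of all 30 pairs were listed in both. The pairs with the ligand alone in E15.5 KO thus restate the absence of these receptors and are no separate result. Pairs with both partners in all 3 lists numbered 19, among them Cxcl12 with Cxcr4, which guides blood progenitors, Ccl2 with Ccr2, which recruits monocytes, and Cxcl1 with Cxcr2, which recruits neutrophils. Ccr7 was listed in all 3 while its ligands Ccl19 and Ccl21a were in none.

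Ccr9 and Cxcr6 are neighbours on chromosome 9 with 22145 bases between them, and among the complete lists both were missing from E15.5 KO alone. Ccr1, Ccr3 and Ccr2 of the same group of genes were listed in all 3. The 150 bases before the RefSeq start of both genes are shown with the same motifs in capitals, as the neighbouring pair that shared a listing pattern.
Ccr9 (chr9:123767061-123767210, plus strand): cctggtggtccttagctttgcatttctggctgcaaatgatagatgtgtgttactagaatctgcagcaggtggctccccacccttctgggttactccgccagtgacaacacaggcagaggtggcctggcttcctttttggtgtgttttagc
Cxcr6 (chr9:123806327-123806476, plus strand): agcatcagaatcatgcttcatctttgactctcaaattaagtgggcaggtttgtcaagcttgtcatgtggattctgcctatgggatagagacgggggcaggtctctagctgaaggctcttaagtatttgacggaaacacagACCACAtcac
The Cxcr6 stretch holds the RUNX motif on the opposite strand, and the Ccr9 stretch holds none of the 3 motifs. Among the 300-base promoter windows of 27025 genes, 28.3% hold the ETS motif, 16.9% the RUNX motif and 14.2% the TBP motif, each counted on both strands whether or not it overlaps another. Windows were found for 20 of the 22 genes that both E13.5 lists held and E15.5 KO did not, and of these 11 hold the ETS motif (55.0%), 6 the RUNX motif (30.0%) and 4 the TBP motif (20.0%). Over all 234 genes the check is void, because 174 (74.4%) had a window. No share is given for the immune-named genes in all 3 lists, so whether a motif goes with the listing was not tested. These are matches of letters, not tested binding sites. The annotated span of Ccr9 overlaps 6 other genes and that of Cxcr6 overlaps Fyco1 on the opposite strand, so reads of those genes could count for them.

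Of 38 receptor or binding protein genes, 32 (84.2%) were in all 3 complete lists, and of 30 ligands or antagonists 20 (66.7%) were. Over all genes 74.9% were in all 3, and over protein-coding genes 89.4%. The receptor share lay between these backgrounds, and the ligand share below both. Among the receptors, Il6st, the shared chain of the interleukin-6 family, Il2rg, the chain shared by several lymphocyte interleukins, and Il10rb were in all 3. Of their 50-base words, Il2rg shares 27.5% and Il10rb 13.9% with other genes. Both overlap another gene on the same strand, so these 2 listings are uncertain. Among the ligands, Il1b, Il6, Il10, Il15, Il18, Il33 and Il34, a ligand of the macrophage growth factor receptor, were in all 3. Of 25 interleukin pairs, both partners were listed in 15 for WT and in 13 for KO at E13.5, in 15 for KO at E15.5, and in all 3 lists in 10.

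Some interleukin pairs differed between libraries. Il5 and its receptor chain Il5ra were both listed in E13.5 KO, the receptor alone in E13.5 WT and neither in E15.5 KO. Il2 was listed in all 3 complete lists and Il2ra in E15.5 KO alone among them. Il2 shares 12.6% of its 50-base words with Ntan1 and overlaps Adad1 on the opposite strand. The listings of both partners are therefore uncertain. Il23a was listed in all 3 complete lists and Il23r in E13.5 WT alone among them. The pairs of Il7 with Il7r, Il22 with Il22ra1 and Il25 with Il17rb were complete in E13.5 WT and E15.5 KO, and in E13.5 KO the receptor was listed without the ligand.

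For WT and KO at E15.5, 6 immune-named genes have identifiers low enough to fall within the WT list. Il4, the cytokine of type 2 responses, Ccl3, an inflammatory chemokine, Cd52, a small glycoprotein of leukocytes, Clec10a and Il12rb1, a chain of the interleukin-12 receptor, were listed in all 4 libraries. Clec2g (chromosome 6, 128934381 to 128984707) was listed in E13.5 KO and E15.5 WT and not in E13.5 WT and E15.5 KO. Thus 1 of 6 genes (16.7%) was in E15.5 WT only and 0 in E15.5 KO only, where 1.74% and 2.91% of all genes of this stretch were, and 1.75% and 2.92% of its protein-coding genes. Between the WT ages 1 of 6 (16.7%) was at E15.5 only, against 1.14% of all genes, and 0 at E13.5 only, against 5.11% of all and 5.14% of protein-coding genes. No other immune-named gene can be compared with E15.5 WT, so whether the genes missing from E15.5 KO were listed in E15.5 WT is not known here.

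Clec2 genes encode lectin-like ligands of the NKR-P1 receptors on NK cells, and their listing varied from neighbour to neighbour. Clec2d and Clec2i were in all 3 complete lists. Among the complete lists, Clec2h was in E13.5 WT alone, Clec2g in E13.5 KO alone, Clec2e in E15.5 KO alone and Clec2f in both KO lists. Clec2g was also in E15.5 WT, and that list does not reach the identifiers of the others. Clec2l, a relative elsewhere on chromosome 6 that is known from brain, was in all 3. The share of 50-base words in the transcripts that another gene also holds was 4.1% for Clec2i, 3.44% for Clec2g, 2.15% for Clec2h and 0 for Clec2e and Clec2f, so little of their sequence is held in common word for word.

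Many immune-named genes lie side by side, some of them as copies of one another. The groups below were formed by distance alone, so they also hold neighbours that are not copies, such as Cxcr5 and Il10ra beside the CD3 genes. In 14 groups of 5 or more neighbours, each within 500 kb of the next, 28 of 85 listed genes (32.9%) were missing from at least 1 complete list, and elsewhere 26 of 149 (17.4%). Over all genes this share was 25.1%, and over protein-coding genes 10.6%. The groups differed. The Ccl genes Ccl5, Ccl9, Ccl6, Ccl3 and Ccl4 on chromosome 11 were all in the 3 lists, as were the 5 Cxcl genes on chromosome 5 (90759360 to 90905938). In the group with the Cd209 genes on chromosome 8 (3707064 to 4360020), Ccl25 alone was in all 3 lists, 4 genes were in both E13.5 lists only, and Cd209d and Cd209e were in none. In the Cd300 group on chromosome 11 (114890041 to 115133992), 5 of 11 were in all 3 and 4 were in both E13.5 lists only. In the Clec2 and Clec1 group on chromosome 6 (128662385 to 129472779), 7 of 13 were in all 3.

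**Figure D4:**
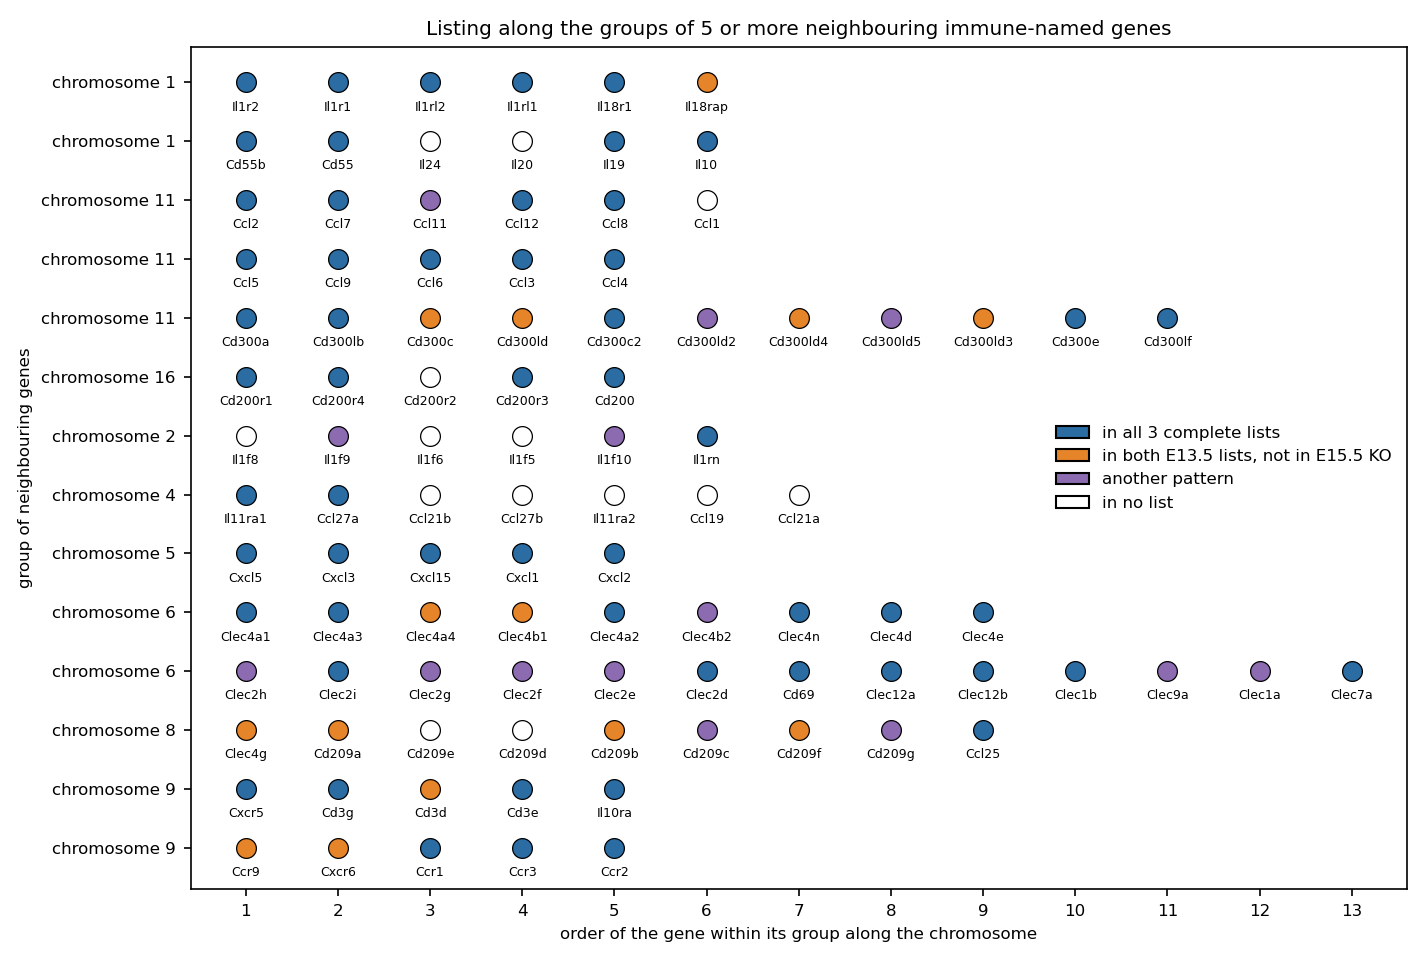
Immune-named genes (all but 1 in these groups) in their order along the chromosome (horizontal axis) within 14 groups of neighbours (rows, labelled by chromosome), coloured by listing: in all 3 complete lists, in both E13.5 lists and not in E15.5 KO, another pattern, or in no list. The 5 Cxcl genes of chromosome 5 are all of the same colour, and the chromosome 8 row holds 1 gene that was in all 3 lists.

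Near-identical copies make some listings uncertain, since a read may fit several genes and the counting rule is not known here. Cd300ld4 and Cd300ld5 differ at 1 of 852 transcript bases (99.88% identical), and Cd300ld3 differs from Cd300ld4 at 10 and from Cd300ld5 at 9. Yet among the complete lists Cd300ld3 and Cd300ld4 were in both E13.5 lists and Cd300ld5 in E13.5 KO alone. The first 90 coding bases of the 3 transcripts (GENCODE M21, transcript bases 115 to 204), than which no coding stretch of this length holds more differences, show how close they are, with the positions that differ among them in capitals.
Cd300ld3: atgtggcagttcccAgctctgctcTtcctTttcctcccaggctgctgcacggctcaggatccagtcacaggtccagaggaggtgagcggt
Cd300ld4: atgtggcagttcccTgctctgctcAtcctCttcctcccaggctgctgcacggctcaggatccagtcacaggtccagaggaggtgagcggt
Cd300ld5: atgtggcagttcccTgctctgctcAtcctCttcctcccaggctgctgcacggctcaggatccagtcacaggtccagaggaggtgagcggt
In this stretch 3 of the 10 differing positions fall, and Cd300ld4 and Cd300ld5 do not differ in it. The listings of these copies cannot be told apart with certainty. Of the 50-base words of Cd300ld5, 100% occur in another gene's transcripts, and of those of Cd300ld4 and Cd300ld3 93.8% and 82.1%. Il22 shares 41.0% with its copy Iltifb, and Cd209f 29.8% with Cd209g. The share was 31.0% for Cd300ld2, 16.6% for Cd209g and 15.7% for Clec4a4, so their listings are uncertain too. For most other genes the share was low: the median was 0 among the genes in all 3 lists, and 10 of these 180 shared 10% or more, as did 4 of the 22 in both E13.5 lists only and 5 of the 32 with another pattern. Il2, Il2rg and Il10rb were among the 10 in all 3 lists, so their listings are uncertain too. Cd3d shared 0.0567%, and Cd5l, Cd209a and Cxcr6 shared none. Of the 54 genes not in all 3 complete lists, 14 (25.9%) overlap another annotated gene, as do 68 of the 180 in all 3 (37.8%). Cd160 overlaps Pdzk1 and Il31 overlaps Lrrc43 on the opposite strand, and whether strand was used in counting is not known here. The median longest transcript was 2490 bases for the genes in all 3 lists, 1940 for those in both E13.5 lists only and 2022 for those with another pattern.

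**Figure D5:**
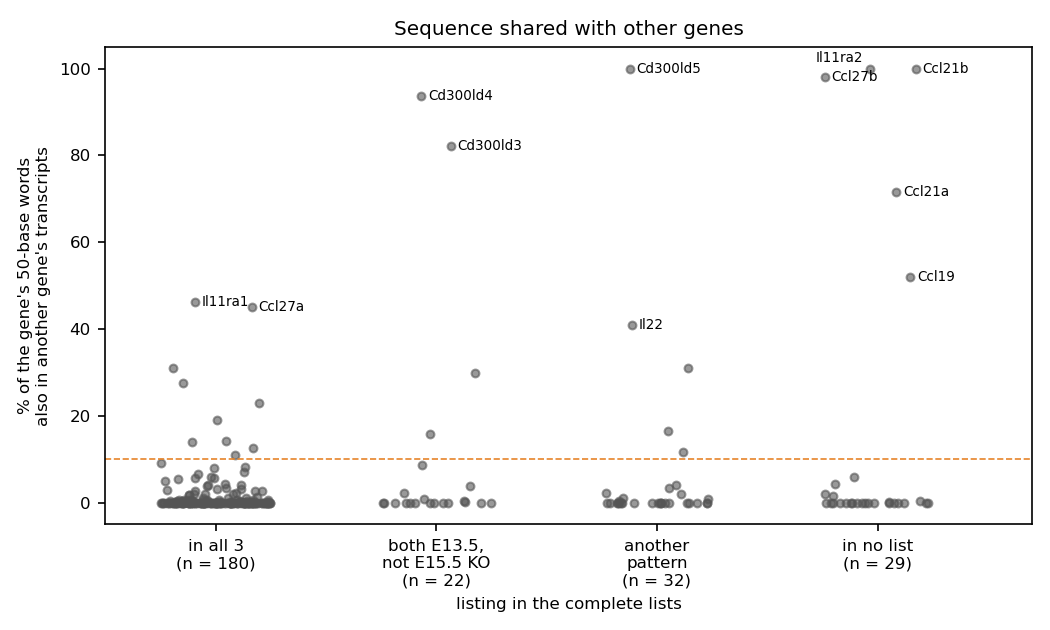
Percentage of a gene's 50-base words that also occur in the transcripts of another gene (vertical axis), 1 point per gene, by listing (horizontal axis); the dashed line marks 10%. Most points lie at or near 0, and the labelled genes above 40% are copies such as Cd300ld5 (100%) and Il22 (41.0%).

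The annotation holds 31 further symbols that fit the naming rule and that none of the lists used here contains. Among them were Cd8a and Cd8b1, the chains of the cytotoxic T cell co-receptor, Cd40lg of helper T cells, Cd207 of Langerhans cells, and the T cell cytokines Il3, Il9, Il17a and Il21. Also in no list were the ligands Ccl1, Ccl19, Ccl21a, Cxcl11 and Il20 and the receptor chain Il31ra. Ccl21a, Ccl21b, Ccl27b, Il11ra2 and Ccl19, which lie together on chromosome 4, shared 52.0% to 100% of their 50-base words with other genes. The part of that sharing in their absence was not tested.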

How the data were processed

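The deposited files hold, for each library, gene identifiers and symbols in 2 columns without a header and no measured value, so listed or not listed was the value used. Seurat and the build mm10 come from the submitters' processing notes. Not given in the sources used here: aligner, annotation release, filters, the treatment of doublets and the rule for listing a gene. Lists without cells allow no doublet check here. The E15.5 WT list ends inside an identifier, and that incomplete line was dropped. Genes of interest were found by their symbols, all 234 matched GENCODE M21 on GRCm38 by identifier, and 1 symbol differed there. Comparisons count genes in 1 list only over genes in either list. For 263 annotated genes, listed or not, the 50-base words of the transcripts were searched in all other genes of GENCODE M21 on the reference chromosomes, on the sense strand. Scripts ran in Python 3.11.15 with SciPy 1.17.1 and were tested on simulated lists. The genes, lineages, markers and pairs were chosen with earlier results of these data known. Genes that differed are named, and for each lineage a few that did not; some items are not reported by name here, though counts include them. Nothing was tested, as each group had 1 library. Alternatives were the annotation's symbols, protein-coding genes, and sets without tandem copies, of leukocyte lineages or of none. Sets without genes that share 10% or more of their words, and without Il1bos and Cd3eap, were chosen after seeing the data.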

Additional observations from a re-analysis of the deposited data

Results flagged for a closer look

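Clec2g was the 1 gene, of 6 immune-named genes comparable in all 4 libraries, whose listing went opposite ways in the genotypes. At E13.5 the KO list held it and the WT list did not, and at E15.5 the reverse was seen. With 1 library per group this difference was not tested. The annotated span of Clec2g overlaps 3 genes on the opposite strand.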

How the results depend on the processing

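Of 77 values recomputed under the alternatives for 11 results, 70 stayed within the 95% binomial interval of the reported value and 7 did not. Many of the 70 could not move, so their number is no measure of robustness. The annotation's symbols gave the same genes in every result. In the stretch that E15.5 WT covers, every alternative that gave a value kept the same 6 genes, except the set without tandem copies. The interval also treats genes of 1 library as independent draws. Among genes of no leukocyte lineage the E15.5 KO list held 90.4%, and 7.41% of those in either KO list were in E13.5 KO only. With identifiers cut where the E15.5 WT list stops, which leaves 6 genes, 16.7% were in E13.5 KO only and 0% in E13.5 WT only, and 0% were in E15.5 KO only beside E13.5 KO. Without tandem copies, which removes Clec2g, 0% of that stretch were in E15.5 WT only, beside either E15.5 KO or E13.5 WT. Without tandem copies the genes in E13.5 KO and not in E15.5 KO were 11.4% of those in either, and without genes sharing 10% or more of their words they were 27 of 207. The stretch holds no gene without a leukocyte lineage, so that alternative gave no value there. No paired analysis was possible because no group has a replicate. Alternatives that need counts could not be computed from lists. The unknown depth limits every statement that a gene was not listed.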
